A study of Homo sapiens with 2 samples.

Results

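The genes of MHC class I antigen presentation and CD274, which encodes the immune checkpoint ligand PD-L1, were examined in H1299 cells with and without metformin. The set holds 9 genes of the 27685 gene IDs listed: the class I heavy chains HLA-B, HLA-C and HLA-E, the light chain B2M, the peptide transporter genes TAP1 and TAP2, the loading chaperone TAPBP, the class I transactivator NLRC5, and CD274. They were taken by symbol and NCBI gene ID in a set proposed with earlier results of these data known, and all 9 had 1 row in each library. H1299 is an established human non-small cell lung cancer line, and metformin is a biguanide drug known to block respiratory complex I of mitochondria. The control group was 1 library from untreated H1299 cells and the metformin group 1 library from H1299 cells given 5 mM metformin; the treatment time was not given in the sources used here. There were no replicates, so no test was run, no difference has a replicate check, and intervals on ratios are 95% intervals that cover the counting of reads only.

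Class I molecules carry peptides from inside the cell to its surface, where CD8 T cells read them. Peptides cut by the proteasome are pumped into the endoplasmic reticulum by the transporter formed by TAP1 and TAP2, and tapasin, the product of TAPBP, holds empty heavy chains next to it until a peptide binds; without B2M the heavy chains do not fold stably. NLRC5 and interferon-induced factors such as IRF1 drive transcription of these genes, and CD274 is also induced by interferon, its product restraining T cells through PD-1. Lung tumours are known to lose class I or gain PD-L1 as ways of avoiding T cells.

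Levels were read in TPM, which scales each gene by its length and by the sum over all genes of that library. Aligned bases came to 5.80 Gb for the control library and 6.40 Gb for the metformin library, which is an estimated 28.7 M and 31.7 M read pairs. The markers of the line and of other cells bear on the origin of the class I RNA. KRT8 and KRT18, keratins of epithelial cells, had 269 and 553 TPM without metformin and 521 and 954 TPM with it, and the mesenchymal filament gene VIM at 4378 and 4962. KRT19 stood below 0.2 TPM in each library. Of 7 leukocyte markers, 4 were at 0 in both libraries, none reached 1 TPM, and their sum was 0.308 TPM in control and 0.0266 in metformin. Both endothelial markers were at 0, and the sum of COL1A1 and DCN, made by fibroblasts, was 0.196 and 0.683 TPM.

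The 9 genes spanned a wide range of levels. B2M was the highest, with 498 TPM in the control and 394 TPM in the metformin library, which placed it 267th and 351st of all genes. HLA-B, HLA-E and HLA-C followed in that order in both libraries, all between 79.9 and 144 TPM. TAPBP, TAP1 and TAP2 lay between 35.4 and 77.3 TPM. CD274 was near the lower end of what was measured, with 1.73 TPM in the control and 2.30 TPM in the metformin library, and NLRC5 stood below 1 TPM in each library, at 0.461 and 0.492. The order of levels was the same in the libraries except that TAP1 and TAP2 exchanged places. A gene was counted as measured at 1 TPM or more in at least 1 library, which 8 of the 9 genes and 14078 genes in all reached; NLRC5 did not.

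**Figure D1:**
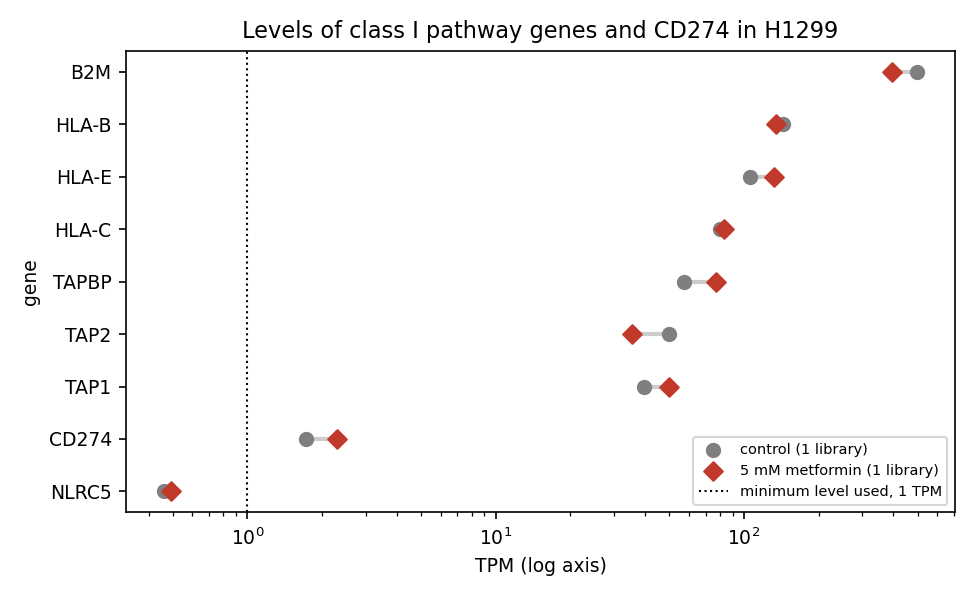
TPM of each of the 9 genes on a log axis, with a grey circle for the control library and a red diamond for the metformin library; the dotted line marks 1 TPM. B2M lies highest at 498 and 394 TPM and NLRC5 lowest at 0.461 and 0.492 TPM, and TAP1 and TAP2 exchange places between the libraries.

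No gene of the set was higher or lower in metformin by 2-fold on the log2(TPM + 1) scale, on which 1.51% of all measured genes were higher and 1.24% lower by that much. The set had no common direction. Of the 8 measured genes, HLA-C, HLA-E, TAP1, TAPBP and CD274 lay above their control values and HLA-B, B2M and TAP2 below, that is 5 above 0, where 40.3% of all measured genes lay above 0. The median difference was 0.16, beside -0.08 over all measured genes, and the values ran from -0.49 to 0.43. At a smaller fold of 1.25, chosen after the values were seen, TAP1 and TAPBP were higher and B2M and TAP2 lower; 13.7% of all measured genes were higher and 22.1% lower by that fold. With the trend over GC content and transcript length removed, TAP1 (0.20), TAPBP (0.30) and B2M (-0.20) fell short of that fold and only TAP2 (-0.53) of the 4 kept it, while CD274 (0.39) then reached it. Of the 13185 measured genes with a GC content and length, 1414 were then higher and 2893 lower by that fold. The removal added the median difference back, and the median of all measured genes was then -0.10. These values are therefore not distances from the trend. The fitted trend itself was 0.05 for TAP1, 0.04 for TAPBP, -0.22 for B2M, -0.04 for TAP2 and -0.19 for CD274. The counting interval lay above 1 for 3 of the 8 (HLA-E, TAP1 and TAPBP) and below 1 for 3 (HLA-B, B2M and TAP2), beside 24.3% and 42.6% of the genes for which an interval could be had. Counts of members near these shares are not a result about the set.

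**Figure D2:**
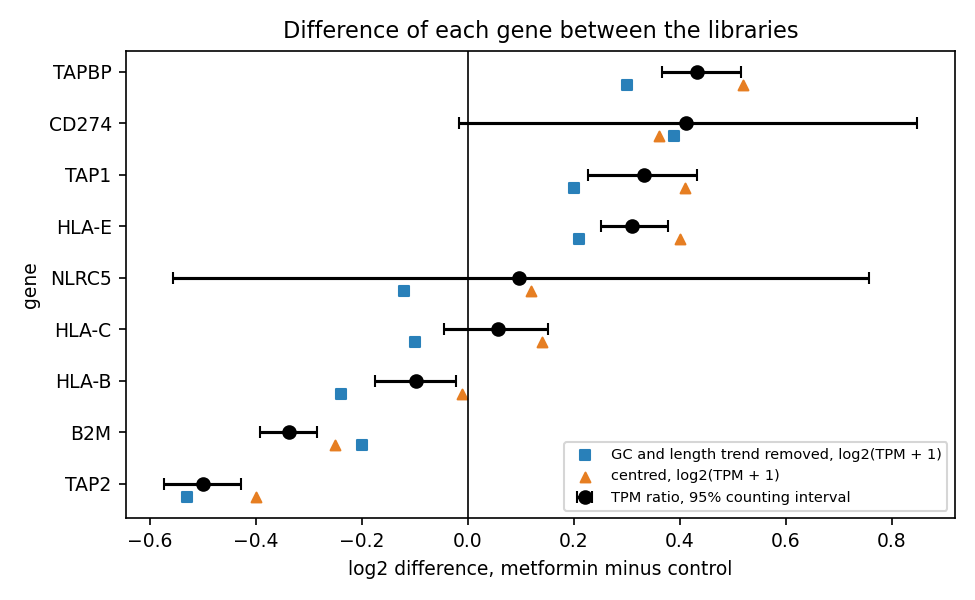
Difference of each gene, metformin minus control, on a log2 scale: black points are plain TPM ratios with 95% counting intervals, blue squares the log2(TPM + 1) difference after removal of the trend over GC content and length, and orange triangles that difference after centring on the median of genes at 10 TPM or more. TAP2 and B2M lie below 0 and TAPBP, TAP1, HLA-E and CD274 above 0 under all of these, while HLA-C and NLRC5 lie on either side of 0.

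The heavy chains did not move together. HLA-E, the nonclassical chain that presents signal peptides of other class I chains to the NKG2A receptor of natural killer cells, had 106 TPM in the control and 132 TPM in the metformin library, 1.24-fold higher (95% counting interval 1.19 to 1.30). HLA-B, a classical chain that presents peptides to CD8 T cells, had 144 and 134 TPM, a ratio of 0.934 (0.886 to 0.985). HLA-C, which presents peptides and is the main ligand of the KIR receptors of natural killer cells, had 79.9 and 83.1 TPM, a ratio of 1.04 (0.969 to 1.11), and its interval included 1. HLA-E stood at 0.740 of the HLA-B level in control and at 0.984 in metformin, and this relation was 1.33 times as high in metformin (1.24 to 1.43). The ratio of HLA-E to HLA-C went from 1.33 to 1.59.

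HLA-E (NCBI gene 3133) is found on chromosome 6 (hg19) from 30457183 to 30461982, plus strand, HLA-C (3107) at 31236526 to 31239913 and HLA-B (3106) at 31321643 to 31325022, both on the minus strand. The canonical transcript of each has 8 exons. The microRNA gene MIR6891 lies inside HLA-B on the same strand and was listed at 0.0699 and 0.433 TPM; with it added, the log2 difference of HLA-B was -0.09 in place of -0.10. Heavy chain alleles of a cell line differ from the reference sequence and resemble each other, so reads can be lost or exchanged between HLA-B and HLA-C, and their levels are uncertain.

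B2M, the light chain shared by all class I molecules, stood in metformin at 0.791 of its control level (0.762 to 0.821). It lies on chromosome 15 at 45003685 to 45010357 (NCBI gene 567, plus strand, 4 exons), outside the MHC region, and no deposited gene overlaps it. The 3 heavy chains of the set summed to 330 TPM in control and 349 in metformin. Per B2M transcript this was 0.662 heavy chain transcripts in control and 0.886 in metformin, 1.34 times as many (1.27 to 1.41), counting these 3 chains only. The transcript of B2M has a low GC content of 39.1%, and the 1117 measured genes within 1 percentage point of it had a median log2 difference of -0.22, against -0.34 for B2M itself. With the trend over GC content and length removed the difference of B2M was -0.20, beside a median of -0.10 over all measured genes. The differences of HLA-B, HLA-C and HLA-E were then -0.24, -0.10 and 0.21, so that of HLA-B lay below that of B2M. The ratio of heavy chains to B2M was not corrected for this trend, and its interval does not cover it.

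The genes of the peptide loading complex differed most from one another. TAP1, which encodes one chain of the peptide transporter, had 39.6 TPM in the control and 49.8 TPM in the metformin library, 1.26-fold higher (1.17 to 1.35). TAP2, which encodes the partner chain, had 50.1 and 35.4 TPM, a ratio of 0.707 (0.672 to 0.743). TAP2 was thus the more abundant transcript in control and TAP1 in metformin. The ratio of TAP1 to TAP2 was 0.789 in control and 1.41 in metformin, 1.78 times as high (1.63 to 1.95). TAPBP, which encodes tapasin, was listed at 57.1 and 77.3 TPM, 1.35-fold higher (1.29 to 1.43). Its ratio to TAP1 was 1.44 in control and 1.55 in metformin, 1.07 times as high with an interval that included 1 (0.983 to 1.17), whereas its ratio to TAP2 went from 1.14 to 2.18. Among all measured genes the difference of TAPBP lay at percentile 90.8, that of TAP1 at 86.5 and that of TAP2 at 10.9.

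TAP2 and TAP1 are neighbours in the class II region of chromosome 6, in the order TAP2, PSMB8, TAP1 and PSMB9. TAP2 (NCBI gene 6891) lies at 32789610 to 32806600 and TAP1 (6890) at 32812986 to 32821748, both on the minus strand of hg19, with 12 and 11 exons in their canonical transcripts and 6385 bases between them. PSMB8, an immunoproteasome subunit that lies between them on the same strand, had 34.3 and 33.4 TPM, a ratio of 0.975 (0.859 to 1.11). PSMB9, another such subunit, starts 189 bases from the 5′ end of TAP1 on the other strand and had 10.5 and 11.3 TPM, a ratio of 1.08 (0.852 to 1.37). The ratio of PSMB9 to TAP1, which share this stretch as a divergent promoter, was 0.266 in control and 0.228 in metformin, 0.858 times as high with an interval that included 1 (0.668 to 1.10). The antisense gene PSMB8-AS1 overlaps the 3′ end of TAP1 and was listed at 1.07 and 0.785 TPM, low beside TAP1; no source used here says whether reads were counted by strand. TAPBP (6892) lies apart on the same chromosome at 33267472 to 33282164, minus strand, and its neighbours RGL2 and ZBTB22, 306 and 17 bases away, had ratios of 1.01 and 1.21.

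**Figure D3:**
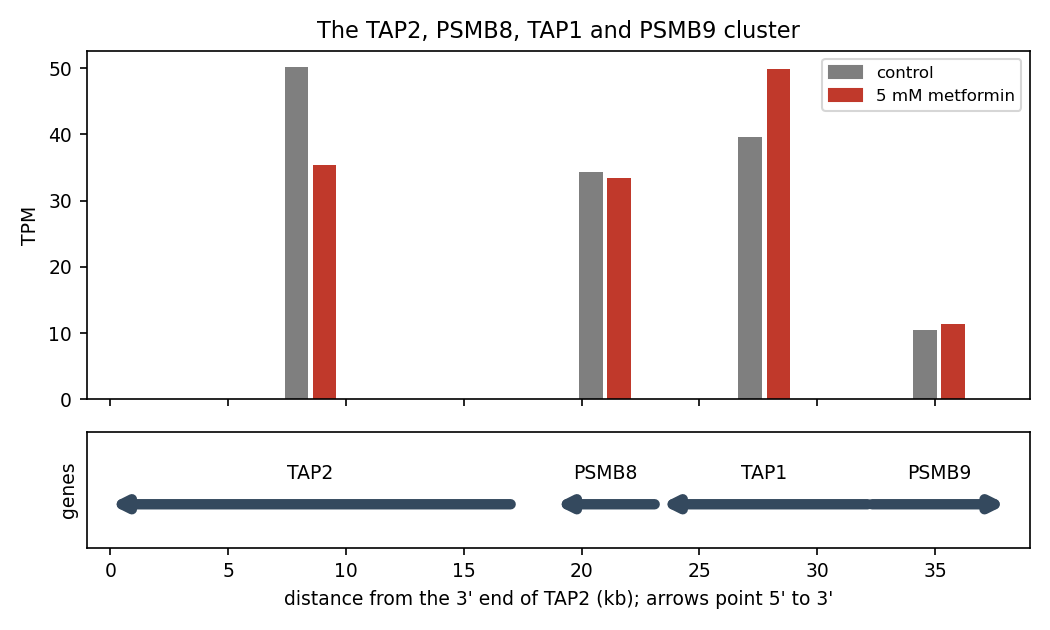
Bars give the TPM of TAP2, PSMB8, TAP1 and PSMB9 in control (grey) and metformin (red), placed above the genes drawn to scale by distance in kb from the 3′ end of TAP2, with arrows for the direction of transcription. TAP2 is lower in metformin (50.1 and 35.4 TPM) and TAP1 is higher (39.6 and 49.8 TPM). For PSMB8 and for PSMB9 the control and metformin bars are close to each other.

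NLRC5, the transactivator that binds the promoters of class I genes through the RFX and NFY complexes, could not be resolved at this depth. Its 0.461 TPM in control and 0.492 in metformin rested on an estimated 38.0 and 46.0 read pairs, and the ratio of 1.07 had an interval of 0.680 to 1.69. NLRC5 (NCBI gene 84166) spans chromosome 16 from 57023397 to 57117436 on the plus strand. CIITA, its counterpart for class II genes, was listed at 0.0173 and 0.0156 TPM. In the list of CIITA and the DNA-binding partners of both coactivators, the 8 partners were measured, 2 above 0 and 6 below, where 59.7% of all measured genes lay below 0. Their median was -0.26, and -0.16 with the GC and length trend removed, where the medians of all measured genes were -0.08 and -0.10. RFXAP, a subunit of the RFX complex, stood at 0.549 of control (0.425 to 0.707) on a level of 5.82 TPM in control, and RFXANK, another, at 1.23 (1.14 to 1.32). RFX5, the third subunit, was listed at 64.8 and 61.7 TPM. NFYB, of the complex that binds CCAAT, stood at 0.651 (0.598 to 0.709) and NFYC at 1.05, and CREB1, which binds the X2 element, at 0.743. The transcripts of NFYB and CREB1 have low GC contents of 35.2% and 35.9%, and without the trend their log2 differences went from -0.59 to -0.34 and from -0.39 to -0.20, while that of RFXANK went from 0.29 to 0.13.

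CD274 was low in these cells. Its level of 1.73 TPM in the control and 2.30 TPM in the metformin library, a ratio of 1.33, rested on an estimated 76.7 and 115 read pairs, and the counting interval of 0.988 to 1.80 included 1. A difference of CD274 was therefore not detectable at this depth. CD274 (NCBI gene 29126) lies on chromosome 9 at 5450503 to 5470567, plus strand, with 7 exons. The gene nearby for the second ligand of PD-1, PDCD1LG2, was listed at 0.170 and 0.255 TPM, below the level at which a gene was counted as measured. JAK2, a kinase of interferon signalling from the same chromosome, was listed at 11.0 and 11.2 TPM. CMTM6, a membrane protein that keeps PD-L1 from degradation, stood at 0.893 of control (0.846 to 0.943), but its log2 difference of -0.16 was 0.01 without the GC and length trend. ZDHHC9, a palmitoyltransferase reported to act on PD-L1, stood at 0.517 (0.470 to 0.569), from 20.8 to 10.7 TPM. JUN, an AP-1 subunit that can drive CD274, was the highest of the 14 listed regulators by difference, at 32.5 and 124 TPM, 3.82-fold higher (3.60 to 4.06), followed by STUB1, a ubiquitin ligase for PD-L1, at 1.33-fold, whose log2 difference of 0.41 was 0.22 without that trend. ZDHHC3, a related palmitoyltransferase, stood at 0.817.

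In the list of interferon signalling upstream of class I and CD274, 1 of 16 genes was higher by 2-fold, beside 1.51% of all measured genes. This was IRF1, the transcription factor that binds interferon-response elements of TAP1, B2M and CD274, which had 7.46 TPM in the control and 18.7 TPM in the metformin library, 2.51-fold higher (2.21 to 2.86). Its log2(TPM + 1) difference of 1.22 was 0.93, short of 2-fold, with a pseudocount of 5. All 16 genes of the list were measured, 10 above 0 and 6 below, with a median of 0.05; over all measured genes 40.3% lay above 0 and the median was -0.08. IRF9 and STAT2, subunits of the ISGF3 complex of type I interferon, were 1.49-fold (1.28 to 1.74) and 1.36-fold (1.26 to 1.47) higher. The receptor chains IFNAR1 and IFNGR1 stood at 0.775 and 0.854 of control, though for IFNGR1 the log2 difference of -0.22 was only -0.08 once that trend was removed. Of the 5 NF-kB subunits, which also act on class I promoters, 4 lay above 0, beside 40.3% of all measured genes, with a median of 0.34 that was 0.18 without the trend. RELB was 1.71-fold higher (1.62 to 1.79), RELA 1.28-fold and NFKB2 1.27-fold, NFKB1 was listed at 48.5 and 49.4 TPM, and REL stood at 0.809. Without the trend the log2 differences of RELA and NFKB2 were 0.21 and 0.18 in place of 0.35 and 0.34. That of NFKB1 went from 0.02 to -0.03, where the median of all measured genes was then -0.10. No class I gene of the set differed by as much as IRF1 or RELB.

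Upstream sequences of 6 of the genes are shown because only some match the exact core of the element that IRF1 and related factors bind. They come from RefSeq on GRCh38.p14, a later build than that of the deposited tables. Each holds the 250 bases before a RefSeq start of the gene, 5′ to 3′ on its own strand. That start need not match the gene bounds given above, so a window can reach into the gene as listed. Of the 9 genes 7 had an entry, and HLA-E and NLRC5 had none. The sequence of HLA-C is not printed because it closely resembles that of HLA-B. Capitals mark the core of the interferon-stimulated response element, GAAA and a second GAAA after any 2 bases, on either strand, where overlapping matches run together. In HLA-B, which has no match to it, they mark the CRE core TGACG and the CCAAT box on either strand. These are the letters of the CREB and NFY parts of the RFX, CREB and NFY module. The RFX part was not searched for.
TAP1 (GRCh38.p14, chr6:32853705-32853954, minus strand): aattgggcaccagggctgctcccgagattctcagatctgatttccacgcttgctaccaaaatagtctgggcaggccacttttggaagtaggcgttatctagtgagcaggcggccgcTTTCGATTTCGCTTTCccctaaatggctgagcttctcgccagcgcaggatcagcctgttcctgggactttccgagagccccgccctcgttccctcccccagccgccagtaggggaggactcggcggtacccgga
TAPBP (GRCh38.p14, chr6:33314079-33314328, minus strand): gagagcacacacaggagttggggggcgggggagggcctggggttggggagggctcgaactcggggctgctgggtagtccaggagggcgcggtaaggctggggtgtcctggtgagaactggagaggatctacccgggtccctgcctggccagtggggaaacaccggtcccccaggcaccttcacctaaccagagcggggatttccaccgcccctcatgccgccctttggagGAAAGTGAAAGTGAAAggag
CD274 (GRCh38.p14, chr9:5450292-5450541, plus strand): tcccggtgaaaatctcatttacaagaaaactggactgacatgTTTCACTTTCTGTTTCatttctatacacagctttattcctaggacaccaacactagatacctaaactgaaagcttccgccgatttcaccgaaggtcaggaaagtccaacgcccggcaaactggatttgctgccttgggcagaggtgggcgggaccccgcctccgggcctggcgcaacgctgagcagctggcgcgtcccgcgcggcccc
B2M (GRCh38.p14, chr15:44711267-44711516, plus strand): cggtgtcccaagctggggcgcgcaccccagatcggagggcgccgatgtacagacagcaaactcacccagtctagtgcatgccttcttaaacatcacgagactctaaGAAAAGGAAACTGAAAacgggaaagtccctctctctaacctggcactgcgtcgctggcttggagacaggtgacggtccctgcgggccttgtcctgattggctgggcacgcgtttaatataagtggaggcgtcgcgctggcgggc
TAP2 (GRCh38.p14, chr6:32838740-32838989, minus strand): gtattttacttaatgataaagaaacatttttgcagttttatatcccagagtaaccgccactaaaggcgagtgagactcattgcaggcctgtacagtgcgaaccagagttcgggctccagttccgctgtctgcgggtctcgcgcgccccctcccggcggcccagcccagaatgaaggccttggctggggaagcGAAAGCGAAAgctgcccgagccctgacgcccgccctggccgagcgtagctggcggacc
HLA-B (GRCh38.p14, chr6:31357180-31357429, minus strand): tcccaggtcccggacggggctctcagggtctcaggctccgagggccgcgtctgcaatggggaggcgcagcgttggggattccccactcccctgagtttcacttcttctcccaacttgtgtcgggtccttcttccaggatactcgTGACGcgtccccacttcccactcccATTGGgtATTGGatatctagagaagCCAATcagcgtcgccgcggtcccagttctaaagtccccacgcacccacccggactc

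This core was found upstream of TAP1, TAPBP, CD274, B2M and TAP2, with 2 overlapping matches in each but TAP2, which has 1, and in 3.02% of all 35116 upstream windows of that length. HLA-B and HLA-C had no match to these letters in this window; their windows were 91.9% identical over 246 aligned bases, and each held 1 CRE core, found in 21.2% of all windows, and 3 or 4 CCAAT boxes, found in 32.0%. B2M also held 1 CRE core and 1 CCAAT box, TAP2 1 CRE core and TAP1 1 CCAAT box, which are not capitalised. TAP1 has a further RefSeq start whose window held no match to the GAAA core. The genes with the core went both ways in metformin: TAP1 and TAPBP had ratios of 1.26 and 1.35, and B2M and TAP2 of 0.791 and 0.707. CD274 had a ratio of 1.33 with an interval that included 1 (0.988 to 1.80). Over all measured genes with the core upstream, 347 in number, the median log2 difference was -0.03 and 45.0% lay above 0, beside -0.09 and 39.3% for the 10551 without it. A match is a description of the sequence, not a bound site. Only exact matches were searched for, so HLA-B and HLA-C can still hold a looser form of the element.

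The steps around the set were followed in lists of pathway genes, of which 96 of 121 were measured. In the list of loading and quality control, 7 of 8 genes lay below 0, with a median of -0.23, beside 59.7% and a median of -0.08 for all measured genes. The chaperones CALR and CANX, which fold heavy chains, stood at 0.862 (0.842 to 0.882) and 0.848 (0.831 to 0.865) of control, on levels of 615 and 327 TPM in control. Without the GC and length trend CANX was at a log2 difference of -0.11 in place of -0.24, and CALR at -0.31 in place of -0.21. PDIA3, the disulfide isomerase bound to tapasin, stood at 0.804, and UGGT1, which returns misfolded glycoproteins to the chaperones, at 0.802. CALR and PDIA3, which sit with tapasin in the loading complex, thus lay below control where TAPBP lay above it. Of the aminopeptidases that trim peptides in the endoplasmic reticulum, ERAP1 was listed at 32.3 and 29.4 TPM, while ERAP2, the gene of the list above 0, was low at 1.41 and 1.95 TPM. TAPBPL, a relative of tapasin that edits peptides, was listed at 1.49 and 1.19 TPM.

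In the immunoproteasome list, 2 of 7 genes lay above 0 with a median of -0.03, and of -0.15 without the GC and length trend. The medians of all measured genes were -0.08 and -0.10. Besides PSMB8 and PSMB9, the catalytic subunit PSMB10 was listed at 25.7 and 21.7 TPM, and the activator subunits PSME1 and PSME2 stood at 1.11 and 0.997 of control. POMP, an assembly chaperone of the proteasome, stood at 0.614 (0.572 to 0.659) and PSME3, an activator subunit of the nucleus, at 0.797. The transcript of POMP has a GC content of 33.1%, and its log2 difference went from -0.70 to -0.38 without the trend. The constitutive catalytic subunits PSMB6 and PSMB5, which the immunoproteasome subunits replace, stood at 0.786 and 0.879, and PSMB7 at 0.971. Of the 6 cytosolic peptidases, 3 lay above 0 and 3 below, between NPEPPS at 1.14 and TPP2 at 0.788. Among genes of class I disposal and retention, 4 of 10 lay above 0 with a median of -0.07, and MARCHF4, a ubiquitin ligase that removes class I from the surface, stood at 0.713 (0.681 to 0.747), from 67.1 to 47.9 TPM. Over all these lists together the median was -0.04, with 42 genes above 0 and 54 below, and 2 (IRF1 and JUN) were higher and 1 (RAET1E) lower by 2-fold. Over all measured genes 40.3% lay above 0, and 1.51% were higher and 1.24% lower by 2-fold, so these counts lie near the shares for all genes.

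**Figure D4:**
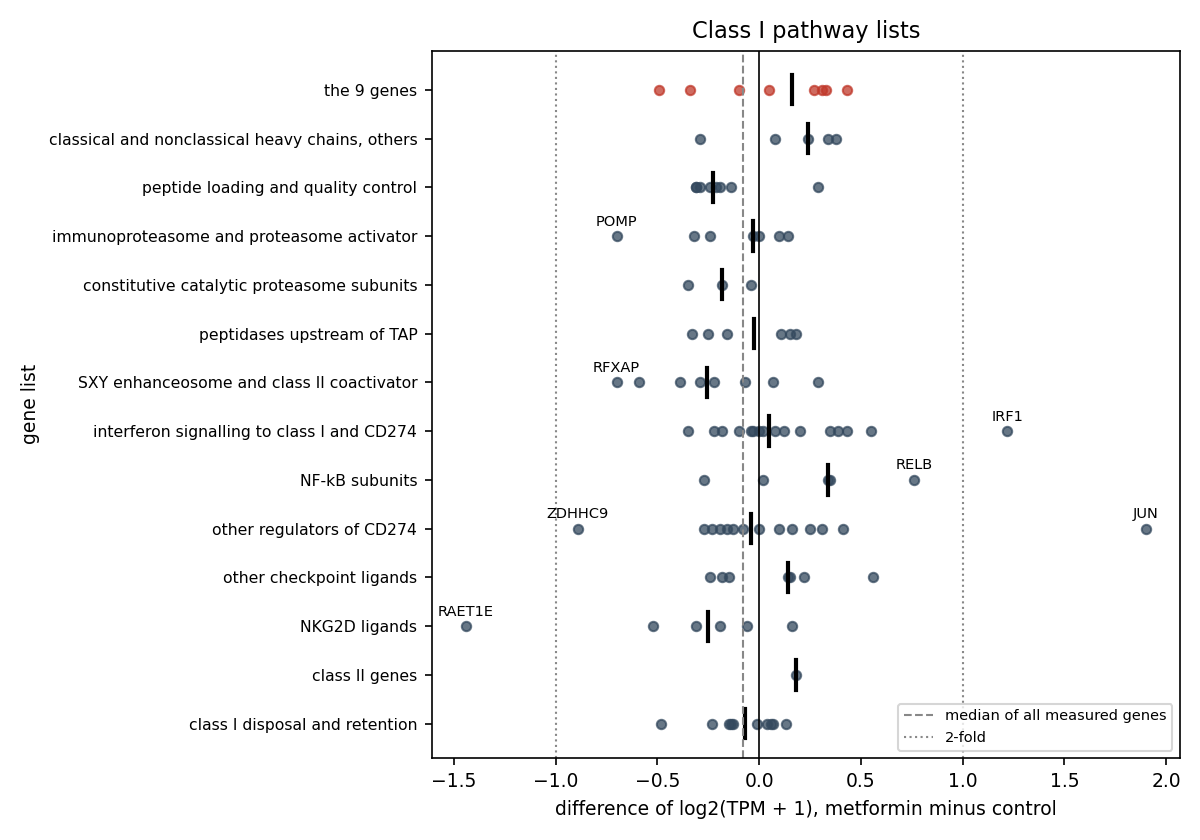
Difference of log2(TPM + 1), metformin minus control, for each measured gene (1 point each) of the 9-gene set and of the pathway lists; black bars are medians, the dashed line is the median of all measured genes (-0.08) and dotted lines mark 2-fold. The set runs from -0.49 to 0.43 on both sides of 0, the loading and quality control list lies below 0 but for 1 gene, and IRF1, JUN and RAET1E lie past the dotted lines.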

How the data were processed

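RNA from 1 untreated and 1 metformin-treated H1299 culture was sequenced with the TruSeq Stranded mRNA LT kit, per the labels' protocols. The labels name Bowtie2 with hg19; per the submitters' processing notes, Trimmomatic 0.38 and HISAT2 were used with hg19, also named as GRCh37. The quantifier and any use of strand were not given in the sources used here. According to the file headers, the deposited tables hold coverage, FPKM and TPM per NCBI gene ID; TPM was computed by the authors and sums to 1000000 per library. FPKM and coverage, as deposited, were used for depth and for alternatives.

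Symbols came from a RefSeq table on GRCh38.p14 (27559 IDs matched, all 9 members among them), used for names only; positions are those of the deposited tables, and exon counts, GC content and lengths come from GENCODE 44 on GRCh37. Rows of 1 ID were summed. The difference was log2(TPM + 1) in metformin minus control, with a pseudocount of 1, so it understates differences of low genes; ratios are plain TPM ratios. Read pairs were estimated from FPKM, transcript length and the aligned bases (the largest ratio of coverage to FPKM), taking 202 bases a pair, the base total seen most often in short genes. Exact (Clopper-Pearson) 95% intervals follow from them, and conditional exact intervals for ratios of ratios. They cover counting error only, and PCR duplicates can make them too narrow. Trend removal subtracted a fit over GC content and log transcript length and added back the median difference of the fitted genes.

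The members and lists were chosen with earlier results of these data known. Named genes were all members, up to 2 at each end of each list, list genes past 2-fold, 13 chosen for their role, and genes that overlap a member; some genes this rule took are not reported here. CANX, TAPBPL, PSME2, CREB1, NFKB2, STAT2, JAK2, MICB, PVR, NECTIN2, RGL2, ZBTB22 and list genes at 0 were named after their values were seen. The calls at 2-fold and the counting intervals of single genes were tested on simulated read pairs that held counting error only. Trend removal, ratios of ratios and motif matches were not tested in this way. Python 3.11.15, scipy 1.17.1 and matplotlib 3.10.9 were used.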

Additional observations from a re-analysis of the deposited data

How the results depend on the processing

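Each of the 9 genes was recomputed under 9 alternatives: pseudocounts of 0.1 and 5, FPKM, scaled coverage, centring, trimmed mean scaling, removal of the GC and length trend, the highest row of each ID, and sums with overlapping genes. The direction held in all but 2 of these 81 values, but many of them could not turn. A pseudocount leaves the sign of a difference as it is, and each gene of the set had only 1 row. Among these genes only HLA-B had an overlapping gene on its strand to be added. The tally is therefore no measure of robustness. Without the GC and length trend HLA-C turned to -0.10 and NLRC5 to -0.12, where the median of all measured genes was -0.10. The log2 difference ran from -0.53 to -0.40 for TAP2, -0.34 to -0.20 for B2M, 0.20 to 0.41 for TAP1, 0.30 to 0.52 for TAPBP, 0.21 to 0.40 for HLA-E, 0.12 to 0.39 for CD274 and -0.24 to -0.01 for HLA-B. No alternative put a gene of the set past 2-fold. The median of the pathway lists turned from -0.04 to 0.05 with centring, to 0.03 with trimmed mean scaling and to 0.00 with no minimum TPM. At a pseudocount of 5 only 1 list gene was higher by 2-fold and 0 lower, and with FPKM 0 were lower; the genes lost were IRF1 (0.93) and RAET1E (-0.59) at the pseudocount of 5, and RAET1E (-0.95) with FPKM. The log2 difference of TAP1 exceeded that of TAP2 by 0.73 to 0.84. Depth limits NLRC5 and CD274. No paired analysis was possible because each group has 1 library, and for the same reason none could be left out.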

Other observations

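Class II genes were all but silent in these libraries. Of 11 class II genes listed, 8 were at 0 TPM in both libraries, HLA-DRA and the invariant chain CD74 among them, and the peptide-exchange chaperone subunit HLA-DMA was the one measured, at 1.89 TPM in control and 2.26 in metformin (ratio 1.20, interval 0.695 to 2.10). Among the other class I-like chains, HLA-F was listed at 5.52 and 7.27 TPM (1.32-fold, 1.01 to 1.71; log2 difference 0.34, and 0.21 without the GC and length trend), MR1, which presents vitamin metabolites, at 0.621 and 1.11 TPM, and HFE, which regulates iron, at 12.7 and 10.2 TPM (0.803, 0.725 to 0.889). HLA-G and CD1D were listed at 0.

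Of 6 measured ligands of the natural killer receptor NKG2D, 5 lay below 0, with a median of -0.25, where 59.7% of all measured genes lay below 0 with a median of -0.08. RAET1E had 3.53 TPM in control and 0.670 TPM in metformin, a ratio of 0.190 (0.141 to 0.252), and ULBP3 had 14.2 and 9.64 TPM, a ratio of 0.678 (0.595 to 0.772). MICA and MICB, the most abundant of these ligands, stood at 1.12 and 0.878 of control on levels of 109 and 108 TPM. Of 15 other checkpoint ligands 7 were measured, 4 above 0 and 3 below, with a median of 0.14 that turned to -0.01 without the GC and length trend. ICOSLG, the ligand of ICOS, was 1.59-fold higher (1.39 to 1.83) on a control level of 3.81 TPM, the TIGIT ligands PVR and NECTIN2 were 1.11-fold and 1.10-fold higher, and CD47, the signal that restrains phagocytosis, stood at 0.844 (0.794 to 0.898). Without that trend the log2 difference of NECTIN2 turned from 0.14 to -0.01, that of PVR went from 0.15 to 0.07, and that of CD47 from -0.24 to -0.04. The median of all measured genes was then -0.10.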
